A study of Mus musculus with 4 samples.

Results

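The receptors of fibroblast growth factor (Fgf) signalling and the genes that its MAP kinase branch feeds back on were followed across the cell types of the caudal mouse embryo in WT and *Grhl3*-null pools. The genes were taken by symbol, as 10 of the 31055 genes in the deposited matrices. They were the receptors *Fgfr1*, *Fgfr2* and *Fgfr3*, the feedback inhibitors *Spry1*, *Spry2*, *Spry4*, *Spred1* and *Dusp6*, and the ETS factors *Etv4* and *Etv5*. All 10 were detected, among 23437 genes with at least 1 UMI in the filtered cells. Transcripts were counted by their molecular barcodes (unique molecular identifiers, UMIs), and each level below is CPM, the gene's UMIs scaled to a fixed total (counts per 1000000) over the summed cells. Embryos at E8.5 came from an intercross of *Grhl3*+/- mice, and their genotype was read from the yolk sac. The WT pool held the caudal parts of 5 embryos and the *Grhl3*-null pool those of 3 embryos, dissociated with trypsin. The droplet reactions were 2 per pool, giving the libraries WT 1, WT 2, *Grhl3*-null 1 and *Grhl3*-null 2. Every comparison of the genotypes is therefore one of 2 pools, the spread between libraries is that of repeated reactions, and the sex of the embryos is not given in the sources used here. *Grhl3*, a transcription factor of the surface ectoderm needed for closure of the neural tube, was read with 878 and 803 UMIs in WT 1 and WT 2 against 12 and 14 in the null pair.

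Fgf ligands bind receptor tyrosine kinases of the Fgfr family and switch on the Ras and MAP kinase cascade. In the caudal embryo the best known ligand is Fgf8, made around the tail end, where it holds progenitors and young mesoderm back from differentiation. Active MAP kinase raises transcription of *Etv4* and *Etv5*, ETS factors that carry the signal to further genes. It also raises inhibitors of its own pathway: the Sprouty proteins (*Spry1*, *Spry2*, *Spry4*) and *Spred1* act on the way from receptor to Ras and Raf, and *Dusp6* encodes a phosphatase that removes the activating phosphates from Erk. These targets are commonly used as readouts of Fgf signalling, while the receptors themselves mark which tissue can receive it.

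Short promoter windows are shown first, because letters known to be bound by regulators of this pathway were found in 3 of the 9 promoters searched. Promoters (250 bases before to 50 bases after an annotated start, from RefSeq on GRCm38.p6) matched 7 of the 10 genes by symbol, with 9 promoters. *Fgfr1*, *Spry4* and *Etv4* had no promoter matched by symbol and were not searched. Capicua is a repressor that MAP kinase signalling removes from its targets, and its octamers were spelled as TGAATGAA, TGAATGGA, TCAATGAA or TCAATGGA, searched on both strands. The capitals mark the octamer as it reads on the gene's strand (the 3 Capicua matches are reverse complements of TCAATGGA and TCAATGAA), and base 1 is the annotated start.
*Dusp6*, chr10:99263196-99263225, plus strand, octamer from base -24 to -17: gagagaatgtaTCCATTGAgacgctggctg
*Dusp6*, chr10:99263221-99263250, plus strand, octamer from base 2 to 9: ggctgtttgtaTCCATTGAggagctgcctc
*Spry2*, chr14:105896855-105896884, minus strand, octamer from base -54 to -47: tcggcctcttgTTCATTGAgaaaaaaaaaa
*Etv5*, chr16:22438349-22438378, minus strand, ETS octamer AGGAAGTG from base 2 to 9: cgacgacacaaAGGAAGTGgtttaaactcc
At least 1 of the 4 Capicua octamers was present in 3.84% of 32851 promoters and at least 2 in 0.183%, so the pair in *Dusp6* is an uncommon arrangement of letters. An ETS octamer (CCGGAAGT, CCGGAAAT or AGGAAGTG, both strands) was present in 8.44%, and AGGAAGTG alone in 4.07%. Of the 9 promoters searched for these genes, 2 held a Capicua octamer and 1 an ETS octamer. The match in *Etv5* lies at 1 of its 2 annotated starts. A match describes these letters only and shows no binding.

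The libraries held between 5698 and 6186 barcodes and between 217559026 and 232903564 UMIs. Filtered cells had a median of 33391 to 38070 UMIs, and 88.2% and 89.8% of WT barcodes passed against 78.4% and 77.4% of null barcodes. Caudal axis markers (6 of 6 detected, summed) reached 780 to 903 CPM in every library and 6 rostral and cardiac markers 4.53 to 5.31 CPM, so the tail markers of the labelled tissue were present. Genes induced by dissociation summed to 204 to 218 CPM. Library pairs shared 7 to 16 barcodes. The pools differed in their makeup: 41.3% and 41.9% of WT cells held a UMI of a posterior Hox gene against 21.0% and 19.2% of null cells, and 63.9% and 63.8% of WT cells were called female against 37.6% and 35.6% of null cells. Genotype, embryonic sex and axial makeup are bound to the same 2 pools and cannot be told apart at the level of the pools. Values within each sex, and in cells with no posterior Hox UMI, are therefore given beside the genotype results.

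Cells fell into classes by clustering, and each class took its name from marker lists that the study chose on these cells. The study's somitic list shares *Dll1*, *Dll3*, *Tbx6* and *Rspo3* with its pre-somitic list, and its paraxial list holds *Tcf15*, *Meox1* and *Foxc2*. The name somitic-like therefore does not stand for formed somites. A class had to hold at least 50 cells in each library, which 11 did, from 3563 cells of the mesenchyme 1-like class to 245 of the erythroid-like class. The unnamed class was led by *Lefty2* and *Ppp1r14a* and had a median of only 16218 UMIs per cell. Of the 10 genes, 9 were among the variable features used for clustering (not *Fgfr3*), so their levels across classes are a description without a test. Errors are the SD between the 2 reactions of a genotype. Neighbours in an order are called separate when the 2 WT libraries of one lie wholly above those of the next.

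**Figure D1:**
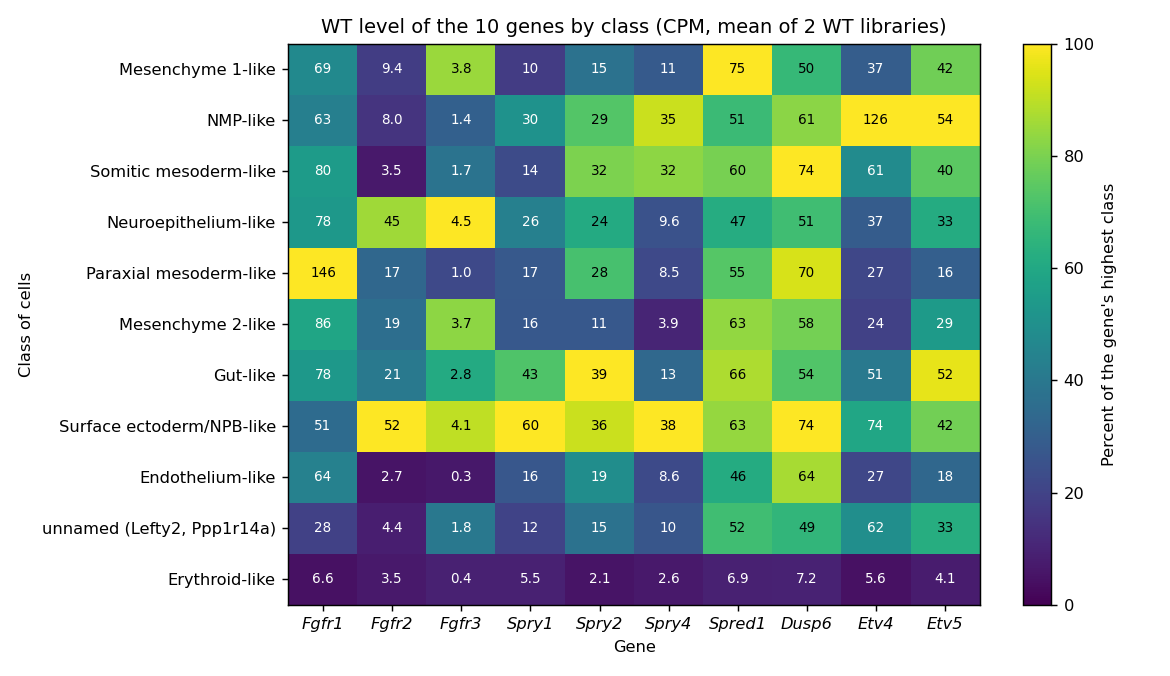
Heat map of the WT level of the 10 genes (columns) in 11 classes (rows). Each cell holds the mean CPM of the 2 WT libraries, and its colour is that mean as a percent of the gene's highest class. *Fgfr1* is highest in the paraxial mesoderm-like class (146 CPM in WT), *Etv4* in the neuromesodermal progenitor-like class (126 CPM), and the erythroid-like class is lowest in WT for 8 of the 10 genes.

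The receptors were placed differently from each other. *Fgfr1*, the main receptor of mesoderm at this stage, was detected throughout, at 146 ± 5.92 CPM (SD, n = 2) in WT paraxial mesoderm-like cells and 86.0 ± 1.54 CPM in mesenchyme 2-like cells. It lay between 51.1 and 79.9 CPM in the somitic, neuroepithelium, gut, mesenchyme 1, endothelium, neuromesodermal progenitor (NMP) and surface ectoderm-like classes, in this order. The somitic, neuroepithelium and gut-like classes did not separate, and neither did the endothelium and NMP-like classes. *Fgfr1* was lowest in the unnamed class with 28.1 ± 1.85 CPM and in erythroid-like cells with 6.58 ± 3.60 CPM.

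*Fgfr2*, best known as a receptor of epithelia, was led by surface ectoderm-like cells with 52.3 ± 0.664 CPM in WT and by neuroepithelium-like cells with 44.9 ± 6.25 CPM. The gut-like class followed at 21.1 ± 0.436 CPM, and the mesenchyme 2, paraxial and mesenchyme 1-like classes at 18.8, 17.4 and 9.44 CPM. NMP-like cells had 7.95 ± 1.08 CPM. The unnamed, erythroid and somitic-like classes did not separate, at 3.50 to 4.42 CPM. *Fgfr2* thus spanned 19.2-fold from the surface ectoderm-like class to the endothelium-like class at 2.73 CPM. In the null libraries the highest class for *Fgfr2* was neuroepithelium-like instead of surface ectoderm-like. *Fgfr3*, which is known in the early neural tube, was sparse, with 4.50 ± 0.223 CPM in neuroepithelium-like cells as the highest level. The surface ectoderm, mesenchyme 1 and mesenchyme 2-like classes came next at 3.73 to 4.07 CPM and did not separate, whereas paraxial mesoderm-like cells had 1.00 ± 0.0481 CPM. In endothelium-like cells 0.288 CPM was left.

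Among the feedback inhibitors, *Spry1* was led by surface ectoderm-like cells at 59.7 ± 6.07 CPM, then gut-like at 43.2 ± 1.52, NMP-like at 30.4 ± 1.11 and neuroepithelium-like cells at 26.0 ± 1.34 CPM, all 4 separate. *Spry2* was led by the gut-like class at 39.4 ± 0.333 CPM and was lowest outside erythroid-like cells in mesenchyme 2-like cells, at 10.8 ± 0.721 CPM. *Spry4* stood in 2 tiers. Its upper tier was the surface ectoderm-like class at 38.3 ± 0.875, the NMP-like class at 35.3 ± 0.0707 and the somitic-like class at 31.8 ± 0.685 CPM. The next class, gut-like, had 12.9 ± 2.29 CPM, and paraxial mesoderm-like cells had 8.47 ± 1.69 CPM.

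*Spred1* and *Dusp6* varied least outside the erythroid-like class. *Spred1* ran from 75.2 ± 0.191 CPM in mesenchyme 1-like cells to 46.2 ± 1.92 CPM in endothelium-like cells, and only 4 of its 10 neighbouring pairs were separate. *Dusp6* ran from 74.0 ± 1.04 CPM in surface ectoderm-like and 73.9 ± 0.913 CPM in somitic-like cells, which did not separate, to 48.8 ± 5.31 CPM in the unnamed class. The ETS factors were both highest in NMP-like cells. *Etv4* reached 126 ± 5.72 CPM there, followed by surface ectoderm-like cells at 74.4 ± 10.2 CPM, and 24.3 ± 0.125 CPM in mesenchyme 2-like cells. *Etv5* was flatter, at 53.5 ± 0.106 CPM in NMP-like and 51.5 ± 0.755 CPM in gut-like cells, and had 16.3 ± 3.46 CPM in paraxial mesoderm-like cells. Over the 10 genes, 66 of 100 neighbouring pairs of classes were separate.

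The order of classes was broadly kept between the genotypes. The rank correlation of the 11 class means between WT and null lay between 0.745 for *Spry4* and 0.973 for *Spred1*, as a description over classes of the same libraries. For 6 genes the same class was highest in both genotypes. The exceptions were *Fgfr2* and, among the inhibitors, *Spry2*, *Spry4* and *Dusp6*, whose highest null classes were surface ectoderm, NMP and somitic-like.

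Some classes had too few cells for a test, and their levels are given as values. Pre-somitic mesoderm-like cells were almost absent from the null libraries, with 515 and 495 cells in WT and 3 and 3 in null. Of these WT cells, 98.1% and 98.0% were called female. In WT they had 36.6 and 36.5 CPM of *Spry4*, 90.2 and 85.2 CPM of *Dusp6* and 54.1 and 52.8 CPM of *Etv4*. The pre-somitic *Spry4* level thus lay within the upper tier above, and both *Dusp6* values lay above its mean in every tested class. Intermediate mesoderm-like cells combined *Fgfr1* at 126 and 118 CPM in the WT libraries with *Fgfr2* at 45.0 and 47.8 CPM, from 40 to 77 cells per library. Their null libraries had 80.2 and 83.6 CPM of *Fgfr1* and 46.3 and 48.0 CPM of *Fgfr2*. Notochord-like cells had the highest *Fgfr3* mean of any class in WT, 6.09 ± 2.12 CPM, and 7.44 ± 1.92 CPM in null, from only 12 to 20 UMIs per library. Primordial germ cell-like cells, of which a library held 5 to 26, had *Etv5* at 111, 130, 102 and 97.5 CPM in WT 1, WT 2, null 1 and null 2, above its mean in every other class.

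Shares of cells with a UMI followed the levels. In WT 1, 92.6% of 782 NMP-like cells held a UMI of *Etv4* (95% Clopper-Pearson interval 90.5% to 94.3%), and 57.2% did after each cell was thinned to 7500 UMIs. *Fgfr1* was held by 95.7% of 532 paraxial mesoderm-like cells in the same library (93.6% to 97.2%), and by 61.7% after thinning. Erythroid-like cells, which should hold little of these genes, were used as a background. Free RNA itself was not measured, and for *Fgfr2* the endothelium-like class lay lower in WT (2.73 against 3.54 CPM). In WT 1, 13.2% of 68 erythroid-like cells held an *Etv4* UMI (1.47% thinned) and 11.8% an *Fgfr1* UMI (2.94% thinned), at a median of 40083 UMIs per cell against 36846.5 in NMP-like and 37861 in paraxial mesoderm-like cells. For *Fgfr2* in NMP-like cells the interval overlapped that of the background. In WT 1, 16.4% held a UMI (13.8% to 19.2%, and 4.73% thinned), against 10.3% of erythroid-like cells (4.24% to 20.1%, and 2.94% thinned). By level it lay above, at 8.72 and 7.18 CPM in WT 1 and WT 2 against 4.56 and 2.52 CPM. *Fgfr3* was held by at most 16.2% of WT cells in any tested class and library, against 1.47% and 2.00% of WT erythroid-like cells, with 0 of 68 and 0 of 50 after thinning (upper limits 5.28% and 7.11%). The intervals cover counting error only.

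Genes outside the pathway with the most similar profile over the WT means of the 11 classes were ranked among 7702 genes. *Rnf122* was closest to *Fgfr1* (Pearson r = 0.99 on log2(CPM + 1)), and *Hs6st1*, an enzyme that modifies heparan sulphate, to *Fgfr2* (0.86). For the inhibitors they were *Errfi1* for *Spry1* (0.97), *Dirc2* for *Spry2* (0.95), *Epha1* for *Spry4* (0.93), *Lrfn4* for *Spred1* (1.00) and *Ctnnb1* for *Dusp6* (0.98). *Coq2* was closest to *Etv4* (0.94) and *Lin28a*, an RNA-binding protein of early embryonic cells, to *Etv5* (0.98). Between the 10 genes themselves, r was 0.91 for *Etv4* and *Etv5*, 0.88 for *Etv4* and *Spry4*, 0.94 for *Spred1* and *Dusp6* and 0.18 for *Fgfr2* and *Spry4*. These are descriptions over 11 classes that share libraries and depth, and the low erythroid-like class raises many of them.

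Within a class the genes were also set against the ligand in the same cells. Cells of each library were ranked by *Fgf8* and split into 4 bins of equal size, in the NMP, somitic and paraxial mesoderm-like classes. Of the 30 pairs of gene and class, 16 were higher in the top bin than in the bottom bin in all 4 libraries. In paraxial mesoderm-like cells, where *Fgf8* went from 0 to 164 CPM, *Spry4* was higher at every step in every library, with means of 2.88, 5.13, 9.01 and 18.2 CPM. Its ratio of top to bottom bin was 6.31 and 8.33 in WT and 6.87 and 4.73 in null. *Etv5* was also higher at every step in every library, from 8.59 to 28.1 CPM (ratios 2.85 to 4.04), and *Etv4* went from 14.2 to 43.1 CPM (ratios 2.61 to 3.42). *Spry2* went from 18.1 to 35.7 CPM (ratios 1.74 to 2.38), whereas *Spred1* had 56.6 and 54.9 CPM in the bottom and top bin. The 3 Fgf targets with the widest ratios were thus *Spry4*, *Etv5* and *Etv4*, in both genotypes alike in direction. The top bin also held *T* (Brachyury, a marker of the primitive streak and early mesoderm) at 103 CPM against 8.52 CPM in the bottom bin. Its cells were deeper, with a median of 55942 against 30183 UMIs in WT 1 and 63788 against 30478 in WT 2. The gap was wider in null, at 86800 against 33947 in null 1 and 86646 against 33568 in null 2. The part of depth was not tested, and the bins were not recomputed with doublets removed. In WT 1 all 133 cells of the bottom bin and 107 of 133 cells of the next had no *Fgf8* UMI, so the order within these bins is partly arbitrary.

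The receptors went the other way in NMP-like cells. *Fgfr2* went from 18.5 CPM in the bottom *Fgf8* bin to 5.60, 2.43 and 1.20 CPM, and the ratio of top to bottom was 0.0637 and 0.0417 in WT and 0.0435 and 0.142 in null. *Fgfr1* went from 74.9 to 54.9 CPM with ratios of 0.656 to 0.776. *Spry4* had means of 22.4, 39.6, 48.3 and 46.6 CPM and *Etv4* 89.7, 112, 122 and 128 CPM. *Fgf8* itself ran from 74.6 to 977 CPM in these bins. In somitic-like cells *Dusp6* went from 59.3 to 85.8 CPM (ratios 1.19 to 1.65) and *Etv4* from 50.9 to 77.4 CPM (ratios 1.43 to 1.68), while *Fgfr2* went from 7.46 to 3.09 CPM. In all 3 classes, then, the top bin held more *Etv4* and *Spry4* and less *Fgfr2* than the bottom bin in each of the 4 libraries.

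**Figure D2:**
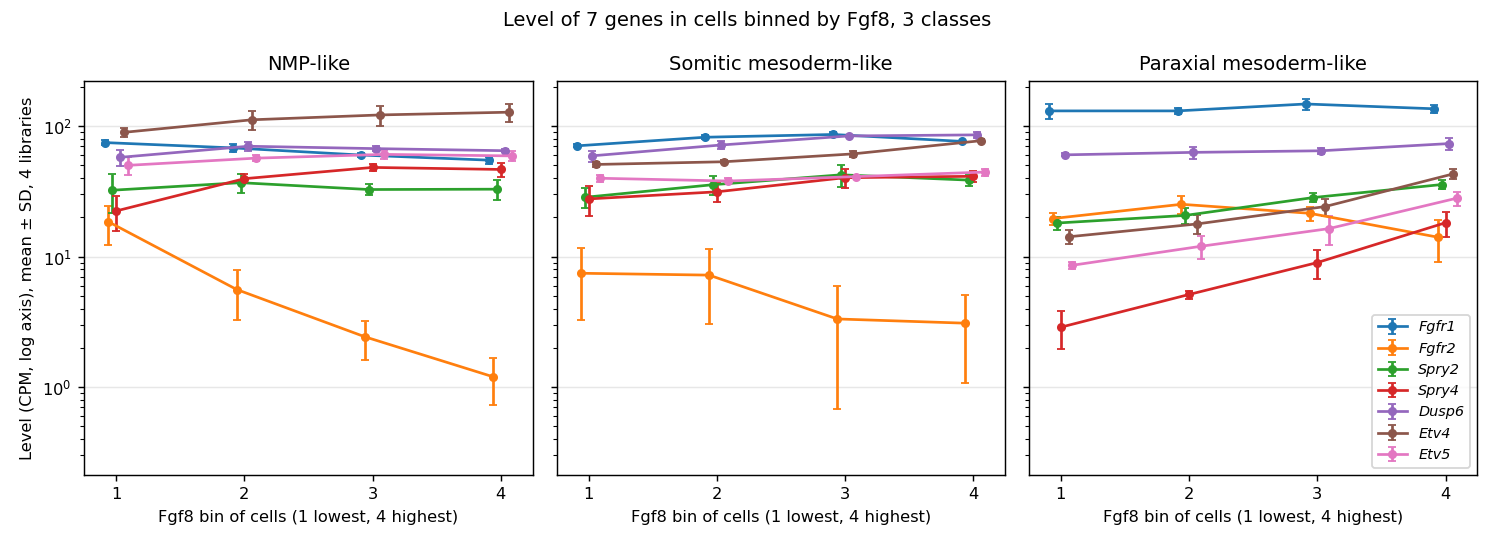
Levels of 7 of the genes (CPM, log axis) in 4 bins of cells ranked by *Fgf8* within the NMP, somitic and paraxial mesoderm-like classes, as the mean and SD of 4 libraries (2 WT and 2 null). *Spry4* in paraxial mesoderm-like cells goes from a mean of 2.88 to 18.2 CPM, and *Fgfr2* in NMP-like cells from 18.5 to 1.20 CPM.

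The genotypes were first compared over all filtered cells, with edgeR's quasi-likelihood test on UMIs summed per library and p adjusted over all genes by the Benjamini-Hochberg method. A gene was called with an adjusted p under 0.05, and log2 values are null minus WT. Of the 10 genes, 5 were called, where 35.5% of all 17168 genes tested were. *Fgfr2* had 16.0 and 16.6 CPM in WT and 25.3 and 25.6 CPM in null, 1.53-fold higher in null (log2 0.61 ± 0.03 SE, edgeR adjusted p = 8.1e-06). *Fgfr3* had 2.60 and 2.37 against 3.89 and 3.97 CPM (log2 0.63, edgeR adjusted p = 4.1e-04). Both receptors were therefore higher in every null library. *Dusp6* had 61.7 and 63.9 against 53.3 and 51.4 CPM (log2 -0.29, edgeR adjusted p = 2.8e-04). *Etv4* had 54.4 and 59.1 against 44.3 and 45.4 CPM (log2 -0.37, edgeR adjusted p = 3.1e-04), and *Spry4* 19.9 and 20.2 against 17.2 and 17.8 CPM (log2 -0.23, edgeR adjusted p = 4.8e-04). *Fgfr1* had 79.6 and 81.0 against 81.0 and 82.4 CPM and was not called. Within 1 sex the picture moved: *Fgfr2* was at log2 1.25 in male and -0.16 in female cells, and *Spry4* at -0.75 in male and 0.14 in female cells, all 4 called. *Etv4* was called in male cells (-0.68) and not in female cells (-0.08), and *Fgfr3* likewise (1.03 and 0.35). *Dusp6* was called lower in both, at -0.46 in male and -0.14 in female cells. Of all genes, 26.8% were called in male and 38.3% in female cells. In cells without a posterior Hox UMI, where 32.0% of all genes were called, *Spry4* was at -0.10 and no longer called (edgeR adjusted p = 0.0536), and *Fgfr2* (0.53), *Fgfr3* (0.40), *Dusp6* (-0.15) and *Etv4* (-0.46) were. Sums over all cells also carry the shares of the classes, which differed, so the classes were tested one by one.

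**Figure D3:**
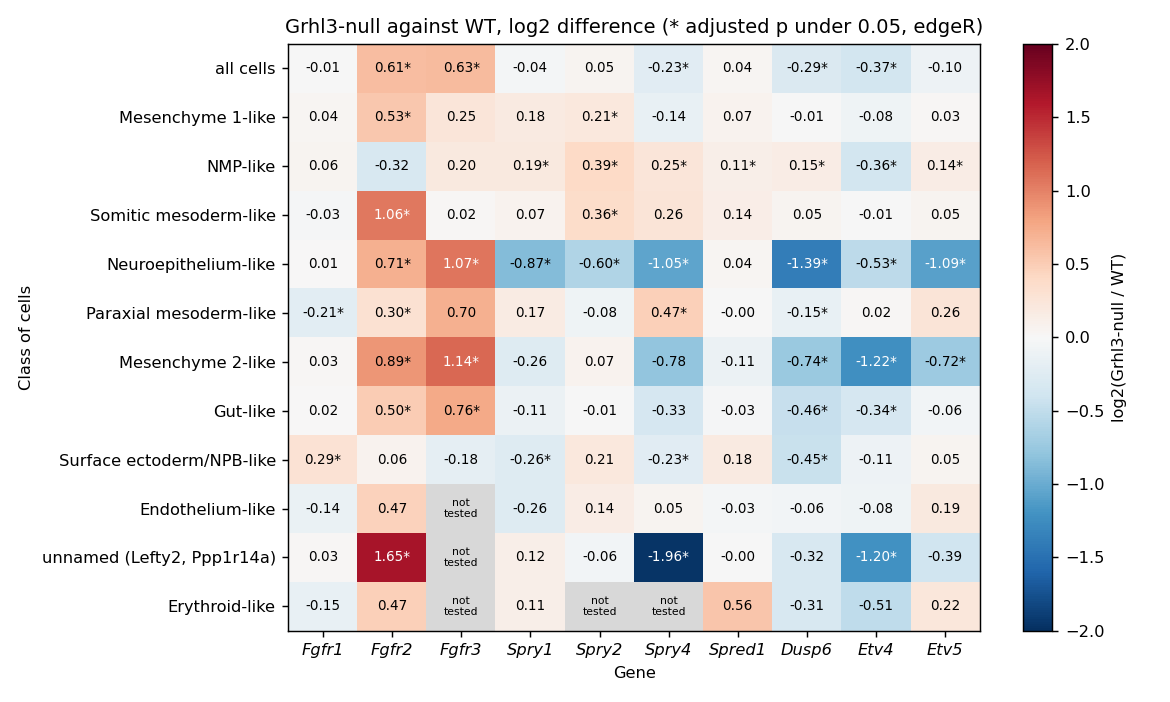
Heat map of the genotype difference of each gene (columns) over all cells and in each tested class (rows), as log2 of null over WT from edgeR, with called values marked by an asterisk and grey where a gene was not tested. *Fgfr2* is called higher in 7 of 11 classes and lower in none, *Etv4* lower in 5 and higher in none, and the neuroepithelium-like class holds the largest falls of *Dusp6* and *Etv5*.

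Over the 11 classes, 39 of 105 tests of these genes were called (37.1%), against 13.9% of 133672 tests over all genes, and 20 of them were higher and 19 lower in null (6.57% and 7.38% over all genes). In a class, the share of all genes called ran from 0.443% to 22.4%. *Fgfr2* was called higher in null in 7 of 11 classes and *Fgfr3* in 3 of 8, with no class lower for either. Among the 7 are the somitic-like and unnamed classes, where WT *Fgfr2* did not separate from the erythroid-like background. *Etv4* was called lower in 5 of 11 classes and higher in none, and *Dusp6* lower in 5 and higher in 1. *Spry4* was called lower in 3 and higher in 2 of 10 classes, and *Spry2* higher in 3 and lower in 1. *Fgfr1* was called in 2 classes, 1 in each direction, and *Spred1* in 1.

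In neuroepithelium-like cells, the class of the neural plate, 8 of the 10 genes were called, where 20.5% of all genes were (1232 higher and 1433 lower of 12995 tested). Every called inhibitor and both ETS factors were lower in null, and *Fgfr2* and *Fgfr3* were higher. *Dusp6* had 50.5 and 52.4 CPM in WT and 19.7 and 20.2 CPM in null, 2.62-fold lower in null (log2 -1.39 ± 0.05 SE, edgeR adjusted p = 4.9e-10). *Etv5* had 32.6 and 33.3 against 16.4 and 15.0 CPM (log2 -1.09, edgeR adjusted p = 5.9e-08), and *Spry4* had 10.3 and 8.92 against 3.97 and 5.46 CPM (log2 -1.05, edgeR adjusted p = 1.8e-04). In none of the 3 did the genotypes overlap. *Spry1* had 25.1 and 27.0 against 14.4 and 14.6 CPM (log2 -0.87), *Spry2* 23.8 and 24.3 against 15.7 and 16.5 CPM (log2 -0.60), and *Etv4* 36.6 and 37.2 against 25.6 and 26.6 CPM (log2 -0.53), with edgeR adjusted p of 9.7e-07, 2.5e-05 and 9.6e-06.

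Of the receptors in the same cells, *Fgfr2* and *Fgfr3* rose. *Fgfr2* had 40.5 and 49.4 CPM in WT and 74.5 and 75.0 CPM in null (1.64-fold higher, log2 0.71 ± 0.06 SE, edgeR adjusted p = 3.6e-06). *Fgfr3* had 4.34 and 4.66 against 9.55 and 9.62 CPM (log2 1.07, edgeR adjusted p = 2.3e-05). *Fgfr1* had 76.7 and 79.4 against 81.8 and 77.7 CPM, so its genotypes overlapped, and *Spred1* 45.7 and 47.7 against 49.1 and 48.7 CPM was not called (edgeR adjusted p = 0.55). The share of cells with a *Dusp6* UMI moved with its level: 64.8% and 64.3% in WT against 250 of 595 and 246 of 648 cells in null, or 29.1% and 28.1% against 10.3% and 12.0% after thinning.

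Other genes of the pathway in these cells were called higher 7 times and lower 9 times, of 40 tested. Among the largest were the ligands: *Fgf17* had 81.6 and 72.0 against 9.80 and 10.7 CPM (log2 -2.93) and *Fgf8* 81.7 and 67.8 against 17.9 and 19.1 CPM (log2 -2.04). *Il17rd*, which encodes the feedback inhibitor Sef, had 53.1 and 55.8 against 23.7 and 26.0 CPM (log2 -1.15). On the higher side, *Fgf15* had 39.8 and 41.9 against 71.2 and 69.2 CPM (log2 0.76), *Fgfbp3*, a carrier of Fgf ligands and a marker of this class, was at log2 0.73, and *Dusp5* at 0.60, all with edgeR adjusted p under the threshold. Of 15 adaptors and kinases of the cascade, 1 was called lower and none higher.

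**Figure D4:**
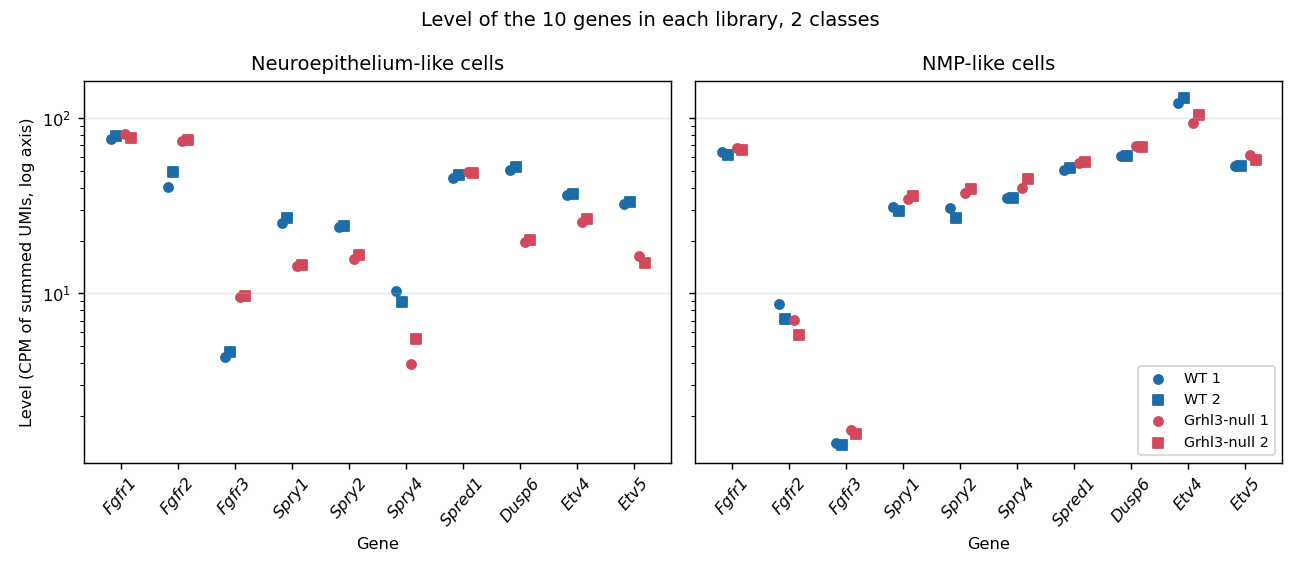
Levels of the 10 genes per library (CPM, log axis) in neuroepithelium-like and NMP-like cells. In neuroepithelium-like cells *Dusp6* is at 50.5 and 52.4 CPM in WT against 19.7 and 20.2 CPM in null, whereas in NMP-like cells it is at 61.1 and 61.3 against 69.1 and 69.0 CPM.

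The makeup of neuroepithelium-like cells differed strongly between the pools. A posterior Hox UMI was held by 44.4% and 45.7% of WT cells and by 3.53% and 1.39% of null cells, and 12 posterior Hox genes summed to 167 and 155 against 1.61 and 0.489 CPM. Of 6 caudal axis markers, 4 were called lower and 1 higher in null, with a median log2 of -1.03. Female cells made up 83.4% and 78.4% of the WT and 13.1% and 12.0% of the null cells. The differences of the Fgf genes were therefore recomputed in subsets of cells. In cells without a posterior Hox UMI, a subset chosen after seeing the data, *Dusp6* had 23.7 and 23.8 CPM in WT and 19.2 and 20.1 CPM in null (log2 -0.28, edgeR adjusted p = 0.0428). The WT level in that subset is thus less than in all WT neuroepithelium-like cells, and the null level nearly the same. *Etv5* was at log2 -0.38, *Etv4* at -0.38, *Fgfr2* at 0.22 and *Fgfr3* at 0.53, still called. *Spry1*, *Spry2* and *Spry4* were at -0.21, -0.13 and 0.17 and not called. In this subset 4.98% of all genes were called.

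Within 1 sex, *Dusp6* and *Etv5* were called lower in both, where 20.2% of all genes were called in male and 24.9% in female cells. *Dusp6* in male neuroepithelium-like cells had 31.0 and 25.2 CPM in WT (64 and 73 cells) and 15.9 and 15.7 CPM in null (log2 -0.77). In female cells it had 55.1 and 61.1 against 33.0 and 38.1 CPM (log2 -0.74; 78 and 78 null cells). *Etv5* was at -0.74 in male and -0.56 in female cells. *Fgfr2* was called higher in both, at 0.32 and 0.71. *Etv4* turned: in male cells it had 54.3 and 60.3 CPM in WT against a mean of 20.2 CPM in null, and in female cells 32.3 and 30.2 against 47.6 and 58.2 CPM. *Spry1* and *Spry2* were called lower in male cells (-0.95 and -0.92) and not in female cells (-0.19 and 0.26). *Spry4* was called in neither sex (-0.34 in male and -0.38 in female cells), and *Fgfr3* was called in male cells only (1.81, against 0.13 in female cells). With Hox, sex-linked and haemoglobin genes left out of the clustering, *Dusp6* in the neuroepithelium-like class was at -0.19 and no longer called (edgeR adjusted p = 0.118), where 7.40% of all genes were. *Etv5* (-0.39), *Etv4* (-0.43), *Fgfr2* (0.20) and *Fgfr3* (0.64) stayed called, while *Spry1* (-0.05), *Spry2* (-0.07) and *Spry4* (0.27) did not. The part of axial makeup and sex in these differences was not tested beyond these subsets.

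**Figure D5:**
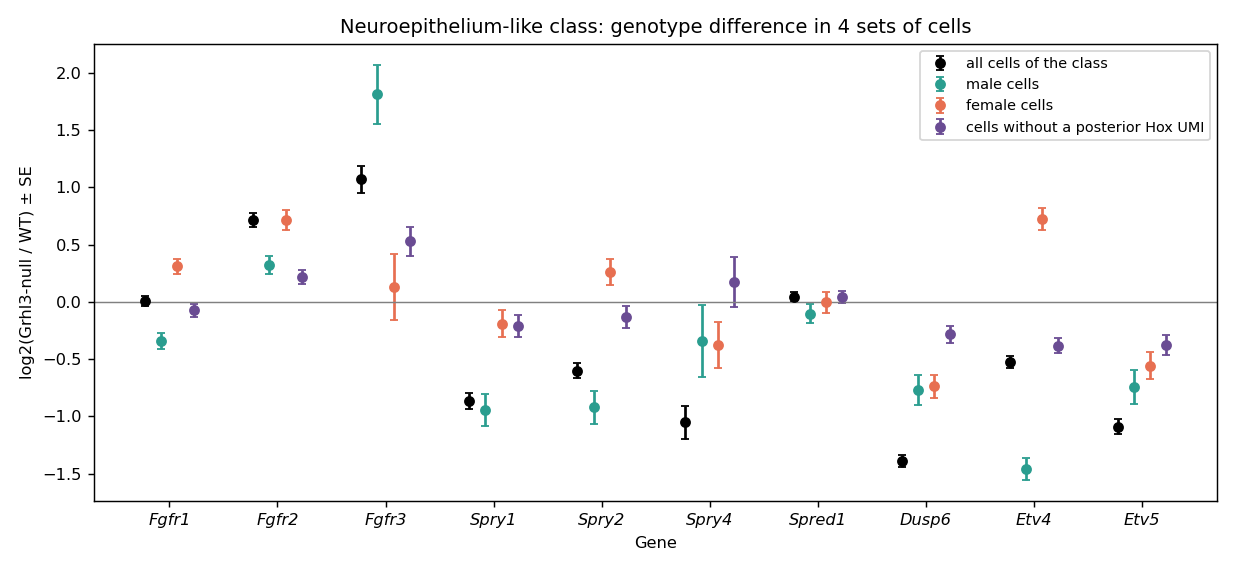
Log2 of null over WT in neuroepithelium-like cells for each gene, in all cells of the class, in male cells, in female cells and in cells without a posterior Hox UMI, with standard errors. *Dusp6* is at -1.39 in all cells and at -0.77, -0.74 and -0.28 in the other sets, and *Fgfr2* lies above 0 in each.

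Mesenchyme 2-like cells gave 5 calls, where 20.2% of all genes were called. *Etv4* had 24.2 and 24.4 CPM in WT and 10.4 and 10.4 CPM in null (2.33-fold lower, log2 -1.22 ± 0.09 SE, edgeR adjusted p = 6.8e-07). *Dusp6* had 58.6 and 58.2 against 35.7 and 34.3 CPM (log2 -0.74), and *Etv5* 28.3 and 29.9 against 16.9 and 18.3 CPM (log2 -0.72). *Fgfr2* rose from 18.4 and 19.1 to 34.3 and 35.2 CPM (log2 0.89) and *Fgfr3* from 3.94 and 3.51 to 8.38 and 8.09 CPM (log2 1.14), with edgeR adjusted p of 1.2e-06 and 2.4e-04. The directions of these 5 were those of the neuroepithelium-like class, while the Sprouty genes were not called. Here, too, a posterior Hox UMI was held by 63.8% and 66.4% of WT and 17.1% and 15.0% of null cells, and dissociation genes summed to 300 and 302 against 218 and 232 CPM. Of 6 caudal axis markers, 5 were called lower and 0 higher in null (median log2 -1.14), and their part was not tested. In cells without a posterior Hox UMI only *Etv4* was called, with 15.5 and 13.6 against 9.54 and 8.70 CPM (log2 -0.67), where 2.47% of all genes were. *Dusp6* was at -0.14, *Etv5* at -0.20, *Fgfr2* at 0.28 and *Fgfr3* at 0.27 there. *Etv4* was called lower in male and in female cells, at -1.06 and -0.74. *Dusp6* and *Etv5* were called in male cells (-1.03 and -1.16) and not in female cells (-0.12 and 0.11), whereas *Fgfr2* and *Fgfr3* were called in female cells (0.84 and 1.34) and not in male cells (0.30 and 0.36). Of all genes, 12.5% were called in male and 24.0% in female cells.

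Gut-like cells gave 4 calls, where 19.3% of all genes were called. *Fgfr2* had 20.8 and 21.4 CPM in WT and 30.5 and 30.8 CPM in null (log2 0.50, edgeR adjusted p = 1.0e-04), and *Fgfr3* 3.10 and 2.40 against 4.78 and 4.85 CPM (log2 0.76). *Dusp6* had 52.6 and 54.9 against 42.5 and 37.6 CPM (log2 -0.46) and *Etv4* 48.8 and 53.2 against 40.7 and 41.9 CPM (log2 -0.34). These are again higher receptors with a lower phosphatase and a lower ETS factor. The *Fgfr3* call was lost without WT 2 (log2 0.60, edgeR adjusted p = 0.0996). In female gut-like cells *Fgfr2* was at -0.08 (22.8 and 21.6 against 21.3 and 20.7 CPM) and *Dusp6*, *Etv4* and *Fgfr3* were at -0.18, -0.05 and 0.34, none of them called, while in male cells the 4 were called at 0.92, -0.57, -0.62 and 1.02. Of all genes, 7.75% were called in female and 14.1% in male cells. Without cells that hold a posterior Hox UMI, *Etv4* was called at -0.45, where 1.39% of all genes were. *Dusp6* was about as large as before there, at -0.44, but not called (edgeR adjusted p = 0.0711), nor were *Fgfr2* (0.17) and *Fgfr3* (0.53).

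NMP-like cells gave a different set of directions. All 5 feedback inhibitors and *Etv5* were called higher in null, in small steps, and *Etv4* was called lower, so 7 of the 10 genes were called where 18.4% of all genes were (7.72% higher). *Spry2* had 30.9 and 26.8 CPM in WT and 37.7 and 39.4 CPM in null (log2 0.39, edgeR adjusted p = 0.00107). *Spry4* had 35.2 and 35.3 against 40.2 and 44.9 CPM (log2 0.25), *Spry1* 31.2 and 29.6 against 34.5 and 36.0 CPM (log2 0.19), and *Dusp6* 61.1 and 61.3 against 69.1 and 69.0 CPM (log2 0.15). *Spred1* was at log2 0.11 and *Etv5* at 0.14. *Etv4*, which was highest in this class, had 122 and 130 against 93.6 and 105 CPM (log2 -0.36, edgeR adjusted p = 5.5e-04).

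Several of the small rises in NMP-like cells lost their call when 1 library was left out, those of *Dusp6* and *Spry4* with hardly any change in size. *Spred1* was not called without any 1 of the 4 libraries (log2 0.09 to 0.13). *Etv5* was not called without WT 1 (0.14), WT 2 (0.14) or null 1 (0.08), and *Dusp6* not without WT 1 or WT 2 (0.15 each). *Spry4* was not called without WT 1 or WT 2 (0.25 each, edgeR adjusted p = 0.0513 and 0.0502), and *Spry1* not without WT 2 (0.15). *Spry2* and *Etv4* stayed called without each library. DESeq2 called 3 of the 10 genes here. In male NMP-like cells none of the 10 genes was called by edgeR, where 2.90% of all genes were (3 had an unadjusted p under 0.05). There *Dusp6* was at -0.09 and *Fgfr2* at 0.80 (3.04 and 3.56 against 6.34 and 5.04 CPM, edgeR adjusted p = 0.0801). In female cells 8 of them were called, where 22.0% of all genes were: *Spry2* at 0.54, *Spry4* at 0.34, *Dusp6* at 0.33, *Spry1* at 0.20, *Etv5* at 0.17, *Spred1* at 0.14, *Etv4* at -0.48 and *Fgfr2* at -1.05, so *Fgfr2* turned sign between the sexes. In cells without a posterior Hox UMI, where 22.5% of all genes were called, *Spred1* was not called (0.08), *Fgfr2* was called lower (-0.55), and the other 6 calls stayed. With the clustering that left out Hox genes *Dusp6* (-0.09), *Spry1* (0.03) and *Etv5* (0.08) were not called, where 24.5% of all genes were. Of 40 other pathway genes in NMP-like cells, 6 were called higher and 4 lower, with *Fgfbp3* at 65.9 and 62.8 against 30.5 and 27.7 CPM (log2 -1.16) as the widest difference.

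In paraxial mesoderm-like cells 4 genes were called, where 22.4% of all genes were. *Fgfr1*, which is highest in this class, had 142 and 150 CPM in WT and 127 and 130 CPM in null (log2 -0.21, edgeR adjusted p = 0.00137). *Fgfr2* had 17.0 and 17.9 against 21.5 and 22.2 CPM (log2 0.30) and *Spry4* 7.28 and 9.67 against 12.7 and 11.2 CPM (log2 0.47). *Dusp6* had 67.6 and 71.4 against 64.1 and 63.2 CPM (log2 -0.15). The receptors thus went opposite ways in this class. *Spry4* was not called without WT 1 (log2 0.28), and *Dusp6* not without WT 2 (-0.12) or null 2 (-0.14). *Fgfr1* was called lower in male cells (155 and 177 against 113 and 116 CPM, log2 -0.54) and higher in female cells (140 and 148 against 165 and 171 CPM, log2 0.23), where 10.6% and 10.5% of all genes were called. *Fgfr2* (0.26 and 0.40), *Spry4* (-0.39 and 0.42) and *Dusp6* (-0.17 and 0.19) were called in neither sex. In cells without a posterior Hox UMI all 4 stayed called (*Dusp6* at -0.12), where 21.5% of all genes were. Of 40 other pathway genes, 13 were called higher and 6 lower here, against 9 higher and 10 lower of 41 in gut-like cells. *Fgf18* was lower in paraxial mesoderm-like cells, at 138 and 121 against 84.6 and 91.0 CPM.

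In the somitic-like class 2 genes were called, where 12.5% of all genes were. *Fgfr2* had 3.49 and 3.52 CPM in WT and 8.57 and 5.93 CPM in null (log2 1.06, edgeR adjusted p = 0.00115), and *Spry2* 31.9 and 31.5 against 39.6 and 42.2 CPM (log2 0.36, edgeR adjusted p = 4.2e-04). Erythroid-like cells, the background, had 4.56 and 2.52 CPM of *Fgfr2* in WT and 2.72 and 8.01 CPM in null, so the somitic-like levels lay close to it. The null somitic-like libraries differed more from each other in *Fgfr2* than the WT ones did. *Fgfr2* was at -0.06 in female somitic-like cells and 0.51 with doublets removed, not called in either. In cells without a posterior Hox UMI both genes stayed called (1.24 and 0.38), where 13.8% of all genes were. *Spry2* was called in female cells (0.59) and had an adjusted p of 0.0502 by edgeR in male cells (0.30), where 15.4% and 3.57% of all genes were called. In mesenchyme 1-like cells *Fgfr2* had 9.44 and 9.44 against 14.0 and 13.1 CPM (log2 0.53) and *Spry2* 15.0 and 14.5 against 16.8 and 17.3 CPM (log2 0.21), the 2 calls of that class, where 11.2% of all genes were called. *Fgfr2* there was called in male cells (1.17) and not in female cells (0.17) or in cells without a posterior Hox UMI (0.29, edgeR adjusted p = 0.0547), where 9.88% of all genes were called. *Spry2* there was not called without WT 1 (0.23), WT 2 (0.18) or null 2 (0.19). *Dusp6* and *Etv4*, not called in this class as a whole, were called lower in its male cells (-0.28 each) and higher in its female cells (0.27 and 0.18), where 9.67% and 19.8% of all genes were called.

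Surface ectoderm-like cells, the class in which *Grhl3* is known to act and in which *Fgfr2*, *Spry1*, *Spry4* and *Dusp6* were highest in WT, gave 4 calls, where 14.2% of all genes were called. *Dusp6* had 73.2 and 74.7 CPM in WT and 55.7 and 55.1 CPM in null (1.37-fold lower, log2 -0.45 ± 0.05 SE, edgeR adjusted p = 1.8e-05). *Fgfr1* had 50.5 and 51.7 against 62.0 and 66.1 CPM (log2 0.29, edgeR adjusted p = 0.00208). *Spry1* had 55.4 and 64.0 against 47.3 and 55.2 CPM (log2 -0.26) and *Spry4* 37.7 and 38.9 against 32.6 and 34.3 CPM (log2 -0.23). *Fgfr2*, at 51.8 and 52.7 against 57.4 and 54.3 CPM, was not called (edgeR adjusted p = 0.53). DESeq2 called 1 of the 10 genes here. The *Spry1* call was lost without WT 2 or null 1 (log2 -0.15 each), and the *Spry4* call without any 1 of the 4 libraries (-0.20 to -0.26). Without cells that hold a posterior Hox UMI *Dusp6* was at 0.15, *Spry4* at 0.22 and *Spry1* at -0.02, none of them called, where 13.0% of all genes were. There *Fgfr1* stayed called (0.29), *Spry2* was called higher (0.46) and *Fgfr3* lower (-0.92). *Dusp6* was called lower in male (-0.50) and in female cells (-0.45), where 14.5% and 15.8% of all genes were. *Fgfr1* was called higher in both, at 0.40 and 0.32. *Spry1* and *Spry4* were called lower in male cells (-0.80 and -0.88) and not in female cells (0.00 and 0.15). Haemoglobin genes summed to 254 CPM in WT 1 against 26.6 to 34.1 CPM in the other libraries of this class, and their part was not tested. The ligand *Fgf8* was higher in null here, at 105 and 90.0 against 127 and 138 CPM (log2 0.40).

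In the unnamed class led by *Lefty2* and *Ppp1r14a*, with 86 to 186 cells per library, 3 genes were called, where 4.26% of all genes were. *Etv4* had 59.8 and 65.3 CPM in WT and 26.8 and 27.0 CPM in null (log2 -1.20, edgeR adjusted p = 2.5e-05). *Fgfr2* had 4.38 and 4.47 against 11.8 and 16.0 CPM (log2 1.65), and *Spry4* 10.3 and 10.3 against 3.92 and 1.28 CPM (log2 -1.96). The WT level of *Fgfr2* here lay close to the erythroid-like background of 4.56 and 2.52 CPM. *Fgf8* (log2 -1.83) and *Fgf17* (log2 -2.65) were lower in the same cells. The *Fgfr2* call was lost without null 2 (log2 1.42), and the *Spry4* call without WT 1, WT 2 or null 2 (-1.96, -1.96 and -1.36). The *Etv4* call was lost with doublets removed (-0.67) and at a clustering resolution of 0.8 (-0.74). DESeq2 did not call *Fgfr2* (DESeq2 adjusted p = 0.182) and gave *Spry4* no adjusted p (log2 -1.98). Of 6 caudal axis markers 5 were called lower and 1 higher in the class, with a median log2 of -1.35 and a sum of 691 and 777 against 365 and 453 CPM, and their part was not tested. In cells without a posterior Hox UMI the 3 genes stayed called, where 3.91% of all genes were. In endothelium-like and erythroid-like cells edgeR called none of the genes, where 0.559% and 0.443% of all genes were called. There, 0 had an unadjusted p under 0.05 and DESeq2 called 0, giving most of them no adjusted p. *Fgfr3* was not tested in these 2 classes and the unnamed one, nor *Spry2* and *Spry4* in erythroid-like cells, since their counts were too low.

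A change called in one class and not in another is no test of a difference, so the genotype effect of each class was set against that of the NMP-like class in 1 model with the library as a block. Of 100 differences, 39 were called. All of them subtract the same NMP-like effect, so they are not separate results. The neuroepithelium-like class gave 7 of 10, where 14.2% of all genes were called. *Dusp6* differed most, at log2 -1.54 ± 0.07 SE (edgeR adjusted p = 2.1e-24), followed by *Spry4* at -1.30, *Etv5* at -1.22, *Spry1* at -1.05 and *Spry2* at -0.99, with *Fgfr2* at 1.04 and *Fgfr3* at 0.88. *Etv4*, lower in null in both classes, was not called (-0.16). The mesenchyme 2-like class gave 8, where 12.8% of all genes were called, and the gut-like class 6, where 8.88% were. The paraxial mesoderm-like class gave 5 (8.60%), the mesenchyme 1-like and surface ectoderm-like classes 4 each (7.74% and 6.05%), the unnamed class 3 (1.48%) and the somitic-like class 2 (1.05%). In endothelium-like and erythroid-like cells edgeR called 0 (1.07% and 0.506%), with 5 and 0 of the 10 at an unadjusted p under 0.05. The effect on *Fgfr2* differed from that in NMP-like cells in 7 classes, all in the positive direction. The shared NMP-like effect was -0.32 for *Fgfr2* and was itself not called. *Etv4* differed in the mesenchyme 1, somitic, paraxial and surface ectoderm-like classes, where its own effects were only -0.08, -0.01, 0.02 and -0.11. Those *Etv4* differences mainly restate its NMP-like effect of -0.36. The effect on *Dusp6* differed in 6 classes, all in the negative direction. These differences were not refitted in subsets, where some of the separate values lay otherwise. In male cells the *Fgfr2* effect was 0.80 in NMP-like cells. That is above the 0.32, 0.26 and 0.30 of the neuroepithelium, paraxial and mesenchyme 2-like classes, so for these the order turned. It is below the 1.17, 1.39 and 0.92 of the mesenchyme 1, somitic and gut-like classes. In female cells the *Fgfr2* effect was -1.05 in NMP-like cells, below that of each other class fitted. For *Dusp6*, the neuroepithelium-like and NMP-like effects were -0.28 and 0.19 in cells without a posterior Hox UMI. They were -0.19 and -0.09 with the clustering without Hox genes, and both pairs lay far closer than in the whole classes. In male cells they were -0.77 and -0.09, and in female cells -0.74 and 0.33.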

How the data were processed

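Single-cell 3′ libraries (10x Genomics) of 2 WT and 2 *Grhl3*-null droplet reactions were used. The authors deposited filtered matrices of UMI counts per gene and cell. The submitters' processing notes name Cell Ranger and mm10. A cell had to show 3000 genes, 7500 UMIs and no more than 7% of its UMIs from mitochondrial genes, which left 5459, 5116, 4842 and 4781 cells in WT 1, WT 2, null 1 and null 2. Counts were normalised with SCTransform in Seurat 5.3.0 (3000 variable features, 30 components, 20 neighbours, resolution 0.4). Clusters were named from the study's lists of 15 markers for 16 cell types. Automatic Scrublet calls marked too few cells to be useful, so doublets stayed in the main result and the 5% of cells with the highest scores were left out as an alternative.

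The UMIs of all cells of 1 class in 1 library were added up and tested with edgeR 4.0.16 (TMM, filterByExpr, quasi-likelihood F test, Benjamini-Hochberg adjustment over all genes of the class). CPM and log2 differences were computed here from the deposited counts. The difference between classes was an interaction term with the library as a block. DESeq2 1.42.0 was an alternative. Every share of all genes called is edgeR's, and that of DESeq2 is not given beside its counts. On simulated data with 200 genes changed by a log2 fold of 1, the edgeR step recovered 199 in the comparison of all cells (17139 genes, 11 wrong calls) and 199 in the NMP-like class (13531 genes, 9 wrong calls). Smaller folds and other classes were not simulated, and only 10 of the 39 calls within classes had a log2 of at least 1 in size. Sex was called per cell from *Xist* and Y-linked UMIs.

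The replicates of a genotype are reactions of 1 pool, so p-values measure only the spread between reactions. Both pairs of reactions differed beyond sampling noise (chi-square divided by its degrees of freedom, 8.20 for WT and 14.4 for null). The genes and lists were chosen with earlier results of these data known. All 10 genes entered every comparison where their counts allowed, and those called in the main test of a class are named. Of the 2 most similar genes ranked for each gene, only the first is given. Pathway genes named were among up to 3 called per direction with a mean of at least 10 CPM, and not all of these are given. Cells without a posterior Hox UMI were an alternative chosen after seeing the data. Levels were not compared between genes, since 3′ counts are not levels per length. Protein sequences were not used here. The gene with the profile most like that of *Fgfr3* is not reported here.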

Additional observations from a re-analysis of the deposited data

Results flagged for a closer look

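The genotype effect (log2 of null over WT) in a class was compared with that in NMP-like cells, and 39 differences passed edgeR's test of the difference itself. They are given as the effect in the class minus that in NMP-like cells, so all share that reference and are not separate results. For *Fgfr2* the difference was 0.85 in mesenchyme 1-like, 1.37 in somitic-like, 1.04 in neuroepithelium-like, 0.63 in paraxial mesoderm-like, 1.21 in mesenchyme 2-like, 0.81 in gut-like and 1.99 in unnamed cells. For *Fgfr3* it was 0.88 in neuroepithelium-like and 0.94 in mesenchyme 2-like cells, and for *Fgfr1* -0.26 in paraxial mesoderm-like cells.

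Among the inhibitors, the *Dusp6* difference was -0.17 in mesenchyme 1-like, -1.54 in neuroepithelium-like, -0.29 in paraxial mesoderm-like, -0.89 in mesenchyme 2-like, -0.62 in gut-like and -0.60 in surface ectoderm-like cells. The *Spry4* difference was -0.39 in mesenchyme 1-like, -1.30 in neuroepithelium-like, -1.04 in mesenchyme 2-like, -0.60 in gut-like, -0.48 in surface ectoderm-like and -2.24 in unnamed cells. The *Spry1* difference was -1.05 in neuroepithelium-like, -0.46 in mesenchyme 2-like, -0.32 in gut-like and -0.45 in surface ectoderm-like cells. The *Spry2* difference was -0.99 in neuroepithelium-like, -0.46 in paraxial mesoderm-like and -0.41 in gut-like cells, and the *Spred1* difference -0.23 in mesenchyme 2-like cells.

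Of the ETS factors, *Etv4* differed by 0.28 in mesenchyme 1-like, 0.35 in somitic-like, 0.40 in paraxial mesoderm-like, -0.86 in mesenchyme 2-like, 0.26 in surface ectoderm-like and -0.86 in unnamed cells. *Etv5* differed by -1.22 in neuroepithelium-like, -0.86 in mesenchyme 2-like and -0.21 in gut-like cells.

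Male and female cells were called in opposite directions, with no overlap of libraries in either, for 9 of the 79 pairs of gene and class fitted in both sexes. How often this held over all genes was not computed, so it is not shown to be a trait of these genes. The difference between the sexes was not tested, and the sexes of a pool are different embryos whose number is not given in the sources used here. In mesenchyme 1-like cells *Dusp6* was at -0.28 in male and 0.27 in female cells and *Etv4* at -0.28 and 0.18. In neuroepithelium-like cells *Fgfr1* was at -0.34 and 0.31 and *Etv4* at -1.46 and 0.72. In paraxial mesoderm-like cells *Fgfr1* was at -0.54 and 0.23 and *Spry2* at -0.95 and 0.55. In gut-like cells *Spry2* was at -0.505 and 0.50 and *Etv5* at -0.42 and 0.32. In surface ectoderm-like cells *Fgfr2* was at 0.50 and -0.41.

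Over all cells, where 26.8% of all genes were called in male and 38.3% in female cells, 6 genes did the same. The share of all genes with opposite calls was not computed here either. *Fgfr2* was at 1.25 in male and -0.16 in female cells, *Spry1* at -0.31 and 0.16, *Spry2* at -0.29 and 0.30, *Spry4* at -0.75 and 0.14, *Spred1* at -0.088 and 0.14, and *Etv5* at -0.47 and 0.25.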

How the results depend on the processing

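Of the 39 calls within classes, 3 kept their direction and stayed called under every alternative run for their class (*Fgfr2* and *Etv5* in neuroepithelium-like and *Etv4* in mesenchyme 2-like cells), and 13 changed sign under at least 1. The cause of the changes was not tested. DESeq2 called 5 of the 10 genes over all cells and 26 pairs within classes, against 5 and 39 with edgeR. Leaving out 1 library gave 5 to 6 and 32 to 40 calls. No composition factor gave 6 and 44, no filter on low counts 5 and 41, a mitochondrial limit of 5% 5 and 41, and removal of doublets 5 and 39. Cells without a posterior Hox UMI, chosen after seeing the data, gave 6 and 30. Male cells gave 9 and 33 and female cells 8 and 31, where the main fit called 36 within the classes that each could be fitted in. These totals include calls that the main fit did not make. Counted with those over all cells, 18 of 41 main calls stayed called in female cells, 12 were lost and 11 changed sign. In male cells 26 of 41 stayed, 13 were lost and 2 changed sign. Clustering without the Fgf genes gave 40, without Hox, sex-linked and haemoglobin genes 34, and at resolution 0.8 33, each against 37 in the classes they share. The median share of cells with a UMI was 52.6%, and 17.7% after thinning.

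The same replicate numbers did not pair the samples: the correlation of deviations was 0.00807 over all cells and at most 0.0905 in a class, with only 2 pairs. With the replicate block 5 genes were called over all cells and 47 pairs within classes, and no call was lost.

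Signs turned as follows (log2). Without posterior Hox cells, *Spry1* over all cells was at 0.13, *Spry4* in neuroepithelium-like cells at 0.17, and *Dusp6* and *Spry4* in surface ectoderm-like cells at 0.15 and 0.22. In male cells, *Spred1* and *Spry2* over all cells were at -0.088 and -0.29, *Fgfr1* in neuroepithelium-like cells at -0.34, *Dusp6* in NMP-like cells at -0.087 and *Spry4* in paraxial mesoderm-like cells at -0.39. In female cells, *Spry1*, *Fgfr2*, *Etv5* and *Spry4* over all cells were at 0.16, -0.16, 0.25 and 0.14. In gut-like cells *Fgfr2*, *Spry2* and *Etv5* were at -0.078, 0.50 and 0.32, in mesenchyme 1-like cells *Dusp6* and *Etv4* at 0.27 and 0.18, and in mesenchyme 2-like cells *Etv5* at 0.11. In neuroepithelium-like cells *Spry2* and *Etv4* were at 0.26 and 0.72, and in paraxial mesoderm-like cells *Dusp6*, *Fgfr1* and *Spry2* at 0.19, 0.23 and 0.55. In somitic-like cells *Fgfr2* was at -0.058, and in surface ectoderm-like cells *Spry1*, *Fgfr2* and *Spry4* were at 0.0044, -0.41 and 0.15. With the clustering without Hox genes, *Spry4* in neuroepithelium-like cells was at 0.27 and *Dusp6* in NMP-like cells at -0.087.

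Male cells could not be fitted in the erythroid, unnamed and endothelium-like classes, nor female cells in the first 2 of these. A mesenchyme 1-like class was not named in the other clusterings. With 2 pools, no spread between embryos is measured, and low genes such as *Fgfr3* are limited by depth.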
